A study of Mus musculus with 8 samples.

Results

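Rasd1, Mapk7 and Fgf11 are 3 genes tied by name or function to FGF and Ras-MAP kinase signalling. They were taken by probe number, as 3 of the 30988 genes or transcripts (33012 probes) on an expression array, one probe each. The RNA came from the metanephric region of mouse embryos, the tissue of the future permanent kidney, at stage E10.25 (8 to 13 tail somites). The tested embryos carried a disrupted Wt1 gene (labelled WT1_KO, 4 pools). The other 4 pools are called controls here, since their titles read WT while their genotype entry reads WT1_heterozygote. Each pool held 16 kidneys of a single genotype, and both genotypes came from a mixed C57Bl6/DBA stock. The Wt1 allele is inherited in the germ line, so every embryonic cell type carried it, and each pool is a dissected region rather than sorted cells.

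Fibroblast growth factors bind receptor tyrosine kinases, and the signal runs through Ras GTPases to a cascade of MAP kinases that ends on transcription factors. In the early kidney, FGF signalling is known for keeping the progenitors of the metanephric mesenchyme alive. Wt1 encodes a zinc finger transcription factor without which the kidney does not form. The 3 genes sit at different places relative to this pathway. Rasd1 encodes a Ras-related GTPase first found as a dexamethasone-induced transcript. Mapk7 encodes ERK5, a large MAP kinase that is switched on by the kinase MEK5 and acts on MEF2 factors. Fgf11 belongs to the FGF homologous factors, which lack a secretion signal, stay inside the cell and bind voltage-gated sodium channels.

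The comparison asks whether the 3 transcripts differ between the genotypes. Rasd1 had the clearest separation, with a mean signal in mutant pools 0.65-fold that of control pools. Mapk7 was at 0.79-fold and Fgf11 at 0.84-fold. In limma's test adjusted over all 17594 tested probes, 0 of the 3 passed the threshold of 0.05, where 81 probes or 0.46% passed in all. At an unadjusted p under 0.05 in the same test there were 2 of the 3, Rasd1 and Mapk7, where 13.5% of all tested probes lay. The 3 genes were chosen with earlier results of these data known, so this count is no result about them as a set. All 3 probes passed the filter on dim probes and were detected on all 8 arrays. Whether separate litters lay behind the pools is not in the labels. The p-values therefore reflect only how these 8 pools varied, which may be technical.

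The promoter table of RefSeq (GRCm38.p6) matched 2 of the 3 genes, and their upstream windows are shown because Wt1 binds GC-rich elements near gene starts. Each holds 249 bases before an annotated transcript start, on the minus strand, at chr11:61494268-61494516 for Mapk7 and chr11:69802282-69802530 for Fgf11. For Mapk7 the promoter table had 2 windows, of which only the first was searched and is shown. RefSeq lists 21 transcripts for Mapk7 and 7 for Fgf11. Whether the windows belong to the transcripts that the probes were named for was not checked. Capitals mark a GC box (GGGCGG) or a CCAAT box (CCAAT), on either strand.
Mapk7: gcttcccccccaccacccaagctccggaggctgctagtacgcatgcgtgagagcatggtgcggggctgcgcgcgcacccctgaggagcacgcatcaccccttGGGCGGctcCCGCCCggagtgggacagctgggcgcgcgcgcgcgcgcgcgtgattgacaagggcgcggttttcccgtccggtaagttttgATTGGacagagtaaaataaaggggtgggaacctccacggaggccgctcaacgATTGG
Fgf11: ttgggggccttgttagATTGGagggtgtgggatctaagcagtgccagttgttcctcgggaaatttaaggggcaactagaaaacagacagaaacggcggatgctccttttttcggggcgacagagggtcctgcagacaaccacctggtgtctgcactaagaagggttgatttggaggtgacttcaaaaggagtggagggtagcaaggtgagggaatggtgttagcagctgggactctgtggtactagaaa
The Mapk7 window holds 27 CpG dinucleotides and 66.3% G and C, against a median of 6 and 52.2% over the windows of 27025 genes. It has 2 GC boxes, 147 and 138 bases before the start, and 2 CCAAT boxes, 57 and 5 bases before it. The Fgf11 window is poorer in CpG, with 5 and 51.4% G and C, and has 1 CCAAT box 233 bases before the start. It lies inside the annotated extent of the gene, so it belongs to a transcript that starts downstream of the outermost one. A GC box is in 32.8% and a CCAAT box in 34.4% of all windows. Also searched on both strands were the WT1 and EGR element in its forms GCGTGGGCG and GCGGGGGCG, which can overlap a GC box by a few bases, and the TATA box (TATAAA). Neither window holds any of these letters, which occur in 0.54%, 2.53% and 13% of all windows.

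Rasd1 (probe 662485, transcript NM_009026.1) had log2 signals of 12.16, 11.88, 11.93 and 11.98 in mutant pools 1 to 4, against 12.68, 12.39, 12.78 and 12.59 in control pools 1 to 4. All 4 mutant pools were below all 4 control pools, with a gap of 0.23 between mutant pool 1 and control pool 2. The mean log2 signal was 11.99 ± 0.12 in mutants and 12.61 ± 0.17 in controls (SD, n = 4 each). The difference of -0.62 (SE 0.12, 95% interval -0.90 to -0.34) did not pass in limma's test (adjusted p = 0.0899). By unadjusted p, Rasd1 ranked 151 of the 17594 tested probes.

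**Figure D1:**
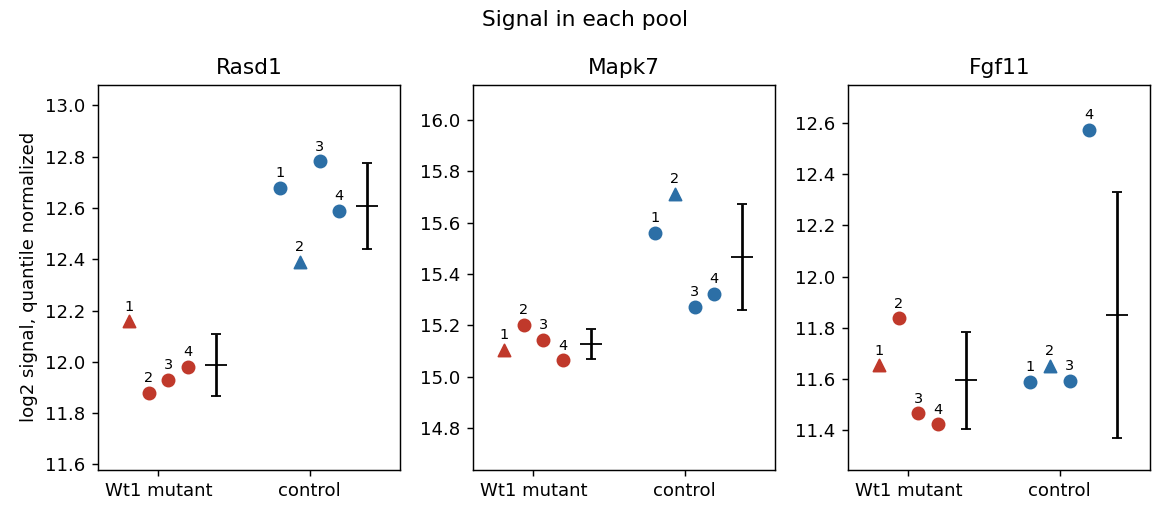
Log2 signal after quantile normalization (vertical axis) of Rasd1, Mapk7 and Fgf11 in the 4 Wt1 mutant pools (red) and the 4 control pools (blue), with the pool number above each point. Triangles are the pools of the smaller array date, circles those of the larger, and black bars are the mean ± SD. The genotypes do not overlap for Rasd1 and Mapk7, and control pool 4 stands alone for Fgf11 at 12.57. Every mutant pool lay below every control pool in 7.62% of all tested probes.

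The separation of Rasd1 was also present in the values as deposited. The array-normalized signal was 4.29, 3.31, 3.66 and 3.72 in mutant pools 1 to 4, against 6.9, 5.05, 6.71 and 5.56 in control pools 1 to 4. The signal-to-noise score ran from 9.53 to 11.67 in mutant pools and from 12.25 to 32.91 in control pools. Neither measure overlapped between genotypes. Both come from the same arrays as the log2 signal, and the share of all probes without overlap was not counted for them. By log2 signal, 7.62% of all tested probes had every mutant pool below every control pool. On the unscaled signal the genotypes overlapped, since mutant pool 4 read 4485.48 while control pool 2 read 3522.61. The median signal of the whole array was 1316.82 in mutant pool 4, against 681.57 in control pool 2, the dimmest array.

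The Rasd1 difference was also taken within array dates. The array names carry 2 dates, of which the larger holds 3 mutant and 3 control pools and the smaller holds mutant pool 1 and control pool 2. Those 2 pools were the highest mutant and the lowest control for Rasd1. Within the larger date the difference was -0.75 (adjusted p = 0.104 in limma's test), and within the smaller it was -0.23, with 1 pool of each genotype and no test. With date as a block it was -0.62 (limma's adjusted p = 0.135). With 1 pool of each genotype on the smaller date, date and those pools cannot be told apart. Rasd1 passed under 2 other settings, namely with array weights, where 1.62% of all tested probes did (-0.68, limma's adjusted p = 0.025), and without control pools 3 and 4, where 26% did (-0.55, limma's adjusted p = 0.0282). Without control pools 1 and 2 it was -0.70 (limma's adjusted p = 0.0658).

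Mapk7 (probe 554261, transcript NM_011841.1) had log2 signals of 15.11, 15.20, 15.14 and 15.06 in mutant pools 1 to 4, against 15.56, 15.71, 15.27 and 15.32 in control pools 1 to 4. The mutant pools lay close together, and all of them were below the lowest control, by 0.07. The controls were uneven, with pools 1 and 2 above pools 3 and 4. The mean log2 signal was 15.13 ± 0.06 in mutants and 15.47 ± 0.21 in controls (SD, n = 4 each). The difference of -0.34 (SE 0.12, 95% interval -0.62 to -0.05) did not pass in limma's test (adjusted p = 0.325, unadjusted p = 0.0249).

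The deposited array-normalized signal of Mapk7 was 32.26, 32.06, 33.21 and 31.28 in mutant pools 1 to 4, against 48.94, 49.02, 40.04 and 38.26 in control pools 1 to 4. It too had no overlap between genotypes, and the share of all probes without overlap on this measure was not counted. The signal-to-noise score did overlap, at 35.59 to 73.5 in mutant pools and 40.04 to 130.25 in control pools. The 2 highest scores were again those of control pools 1 and 2.

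How far Mapk7 was lower rested on which controls entered. Without control pools 1 and 2 the difference was -0.17 (limma's adjusted p = 0.30), and without control pools 3 and 4 it was -0.51 (limma's adjusted p = 0.0144). With array weights it was -0.21 (limma's adjusted p = 0.257). Without control pools 3 and 4, 26% of all tested probes passed, so the Mapk7 call there is read against that share. On the first principal component of all tested probes the same 2 controls were at 42.2 and 67.5, far from the remaining 6 arrays, which were between -21.5 and -13.1. Within the larger array date the difference was -0.25, and within the smaller it was -0.61, with 1 pool of each genotype. The alpha globin Hba-a1, the 1 red cell marker of 8 that was matched, was lowest in the same controls. Its log2 signal was 19.84, 20.00, 20.10 and 19.77 in mutant pools 1 to 4, against 18.08, 18.66, 19.40 and 19.64 in control pools 1 to 4. Hba-a1 differed by 0.98 (limma's adjusted p = 0.279), and its part in the values of Mapk7 was not tested. Of the neural markers, Pou3f3, a neural and kidney transcription factor, was highest in the same controls. Its log2 signal was 9.999, 9.52, 10.71 and 10.23 in mutant pools 1 to 4, against 11.06, 10.88, 10.28 and 9.96 in control pools 1 to 4 (difference -0.43, limma's adjusted p = 0.492). The neural genes Lhx2 and Sox3 were detected in 0 of 4 mutant pools and 1 of 4 control pools each, in both cases control pool 1. Lhx2 was at 9.65 there and between 7.44 and 8.49 in the other pools, and Sox3 at 10.51 there and between 8.49 and 9.79 in the other pools. The part of these markers in the values of Mapk7 was not tested either. Fewer cells of a type and less RNA per cell cannot be told apart in such pools.

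**Figure D2:**
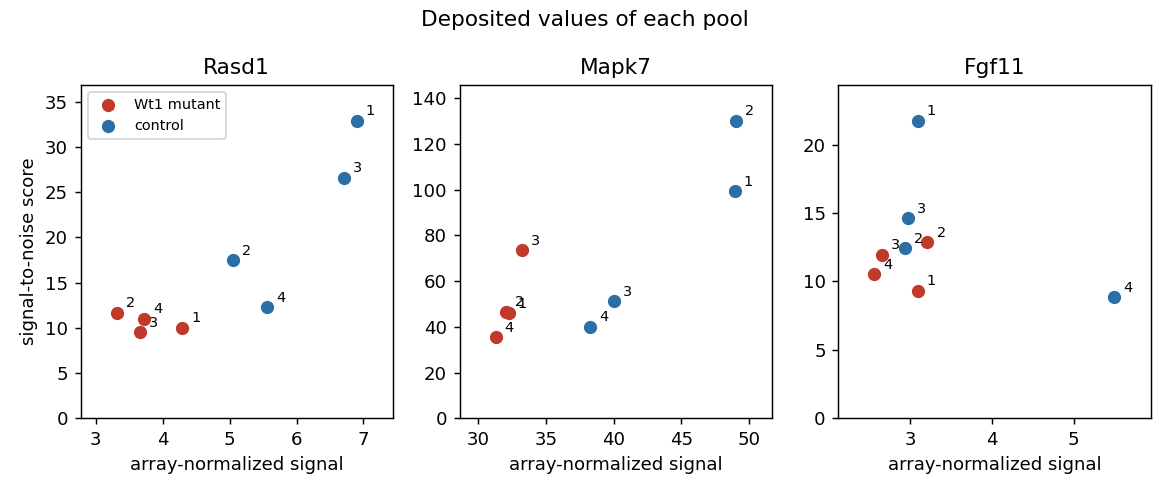
Deposited array-normalized signal (horizontal axis, arbitrary units) against the deposited signal-to-noise score (vertical axis) in the 4 Wt1 mutant pools (red) and 4 control pools (blue), with pool numbers beside the points. Rasd1 separates the genotypes on both axes and Mapk7 on the horizontal axis only, while Fgf11 in control pool 4 has the highest signal, 5.5, and the lowest score, 8.87. The share of all probes without overlap was not counted for either measure.

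Fgf11 (probe 325472, transcript NM_010198.1) had log2 signals of 11.65, 11.84, 11.47 and 11.42 in mutant pools 1 to 4, against 11.59, 11.65, 11.59 and 12.57 in control pools 1 to 4. The genotypes overlapped, and a single control pool lay above all other pools. The mean log2 signal was 11.60 ± 0.19 in mutants and 11.85 ± 0.48 in controls (SD, n = 4 each). The difference was -0.26 (SE 0.23, 95% interval -0.79 to 0.28, limma's adjusted p = 0.583).

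The lower mean of Fgf11 in mutants rested on control pool 4. Without it the difference was -0.02 (limma's adjusted p = 0.952), and controls 1 to 3 had a mean of 11.61 ± 0.03 (SD, n = 3). The median over all tested probes was -0.09 in that fit, so that Fgf11 lay above it. Without control pools 3 and 4 the difference of Fgf11 was also -0.02, against a median of -0.14. Within the larger array date the difference was -0.34, and within the smaller it was 0.0033, with 1 pool of each genotype at 11.65. In control pool 4 the Fgf11 probe was 0.96 above that mean and carried a flag of 64, while the flag was 0 for all 3 probes in every other reading. Its signal-to-noise of 8.87 was the lowest of the 8 pools, which otherwise ran from 9.31 to 21.76. Of the tested probes, 100 carried flag 64 in control pool 4. Their median log2 deviation from the other controls was 0.56 (quartiles 0.15 and 1.10), against -0.09 (quartiles -0.31 and 0.22) over all tested probes. A deviation at least as large as that of Fgf11 was found in 31% of the flagged probes and 3.4% of all tested probes. What the flag stands for is not given in the sources used here.

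Set beside all tested probes, the 3 differences lay on the lower side of the distribution. The median difference over all 17594 tested probes was -0.06 and 58.4% were below 0. A difference as low as that of Rasd1 or lower was found in 3.62% of probes, of Mapk7 in 12.9% and of Fgf11 in 20.6%. Of the 3 genes, 2 had every mutant pool below every control pool, as did 7.62% of all tested probes. The 3 were chosen with earlier results of these data known. Their place in the distribution and this count are therefore no result about them as a set. The exact permutation test of the difference in means over the 8 pools, two-sided and unadjusted, gave p = 0.0286 for Rasd1 and for Mapk7, the smallest that 8 pools allow. Any probe whose genotypes do not overlap gets this p, so it adds nothing to the separation counted above. The same exact permutation test gave p = 0.514 for Fgf11.

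**Figure D3:**
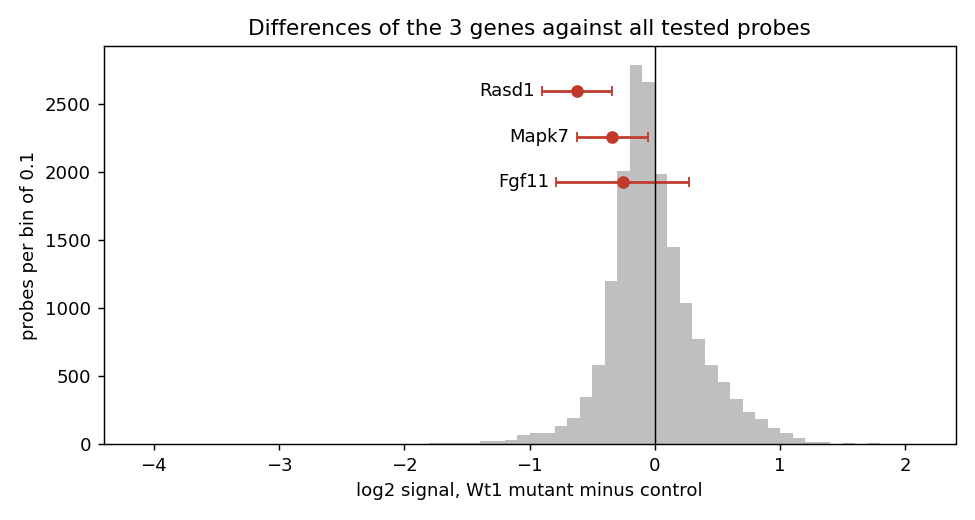
Number of tested probes (vertical axis) by difference in log2 signal, Wt1 mutant minus control, in bins of 0.1 (grey). Red points and bars are the differences of Rasd1 (-0.62), Mapk7 (-0.34) and Fgf11 (-0.26) with 95% intervals, placed at arbitrary heights; only the interval of Fgf11 takes in 0.

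The 3 genes were also compared with one another inside each pool, which removes any scaling of a whole array. The log2 ratio of Rasd1 to Mapk7 was lower in mutants than in controls by 0.28 in the mean, and that of Rasd1 to Fgf11 by 0.37. That of Mapk7 to Fgf11 differed by -0.08. The exact permutation tests over the 8 pools, two-sided and adjusted over 3 pairs, gave p = 0.343, 0.343 and 0.857. Unequal change among the 3 genes was thus not detected with these 8 pools.

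Besides the reported fit, 23 limma fits with other processing were made, of which 5 leave each difference at its reported value by construction (another filter, variance model or block). The difference of Rasd1 ran from -0.75 to -0.55, that of Mapk7 from -0.51 to -0.17 and that of Fgf11 from -0.49 to -0.02. The threshold was passed in 2 of these fits by Rasd1, in 1 by Mapk7 and in 0 by Fgf11. Rasd1 passed with array weights, where 1.62% of all tested probes did. Rasd1 and Mapk7 passed without control pools 3 and 4, where 26% did, against 0.46% in the reported fit. Most of these fits share pools, so they are not independent of each other.

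**Figure D4:**
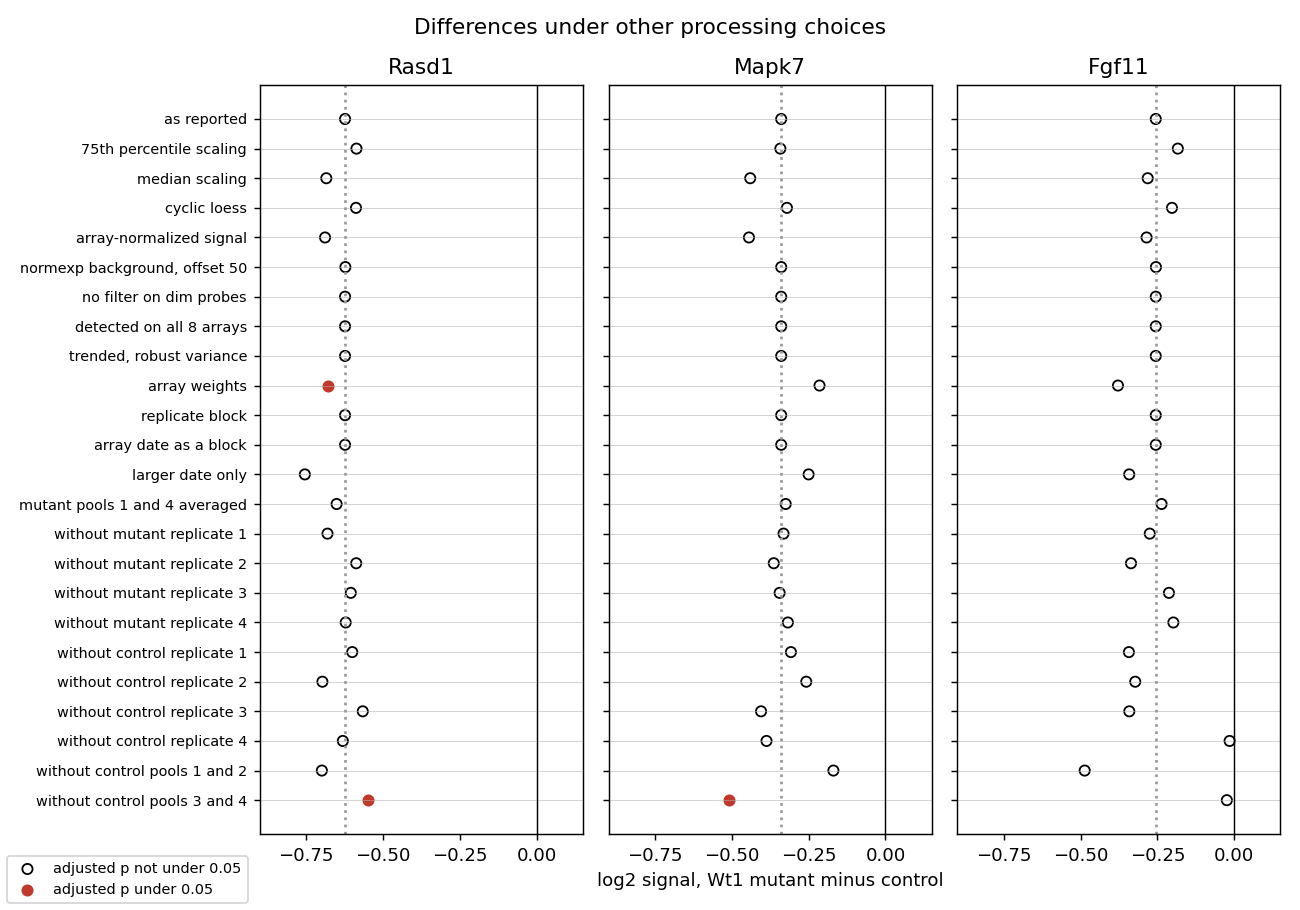
Difference in log2 signal, Wt1 mutant minus control (horizontal axis), of Rasd1, Mapk7 and Fgf11 under the processing choices named at the left; filled red points had limma's adjusted p under 0.05 and dotted lines mark the difference as reported. All points lie left of 0, the Rasd1 points between -0.75 and -0.55, and Fgf11 comes closest to 0 without control pool 4, at -0.02.

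The other genes of the pathway could hardly be read, because the files give most probes an identifier with no symbol. Of 154 genes on 10 lists of FGF ligands, receptors, Ras GTPases, MAP kinase modules, feedback inhibitors and response genes, 5 were matched and 4 tested. These were the 3 genes described here and Jun, an AP-1 transcription factor. Of the 4 tested genes, 0 were called higher, against 0.0682% of all tested probes (12), and 0 lower, against 0.392% (69), so the counts do not set these genes apart. At an unadjusted p under 0.05 in limma's test there were 2, Rasd1 and Mapk7, where 13.5% of all tested probes lay. Both are members, which were chosen with earlier results of these data known, so this count is no result about the pathway. Jun had a mean log2 signal of 15.81 ± 0.09 in mutants and 15.72 ± 0.12 in controls (SD, n = 4 each), a difference of 0.09 (limma's adjusted p = 0.677). Fgf21, a secreted FGF that acts as a metabolic hormone, was matched but detected in 0 of 4 mutant and 0 of 4 control pools, with signal-to-noise between -2.47 and 2.54. It was not tested. No FGF receptor, Raf, MEK, Spry, Spred, Dusp or Etv gene of these lists was matched, and they are not analysed here.

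The tissue label could not be checked by its own markers. Of 69 marker genes on 9 lists, 4 were matched, and the nephron progenitor, ureteric bud, stroma and coelomic lists had 0 matched members. Wt1 itself was not matched. The 4 matched were Hba-a1 and the neural markers given with Mapk7.

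The matched genes with the most similar pattern were found by the root mean square difference of log2 signals, each gene centred on its own mean of the 8 pools. These genes were picked for likeness to the member, which favours shared peaks, so such peaks are no separate result. For Rasd1 they were Ldhal6b, a lactate dehydrogenase-like gene (0.14), Fam83g (0.20) and the pyridoxal phosphatase Pdxp (0.21), against a median of 0.40 over 172 probes. For Mapk7 the closest were the nucleolar GTPase Gnl2 (0.07) and the Cdc42 effector Cdc42ep1 (0.09), against a median of 0.32. Both were also highest in control pools 1 and 2. For Fgf11 they were Grap, a GRB2-related adaptor (0.24), the nucleolar gene Nol12 (0.27) and the keratin-associated Krtap3-3 (0.27), against a median of 0.42. All of these 3 were also highest in control pool 4, but by less than Fgf11. Minus the gene's own mean, they were at 0.30, 0.40 and 0.20 there, against 0.85 for Fgf11. Krtap3-3 belongs to a family of similar genes, so its probe is uncertain.

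**Figure D5:**
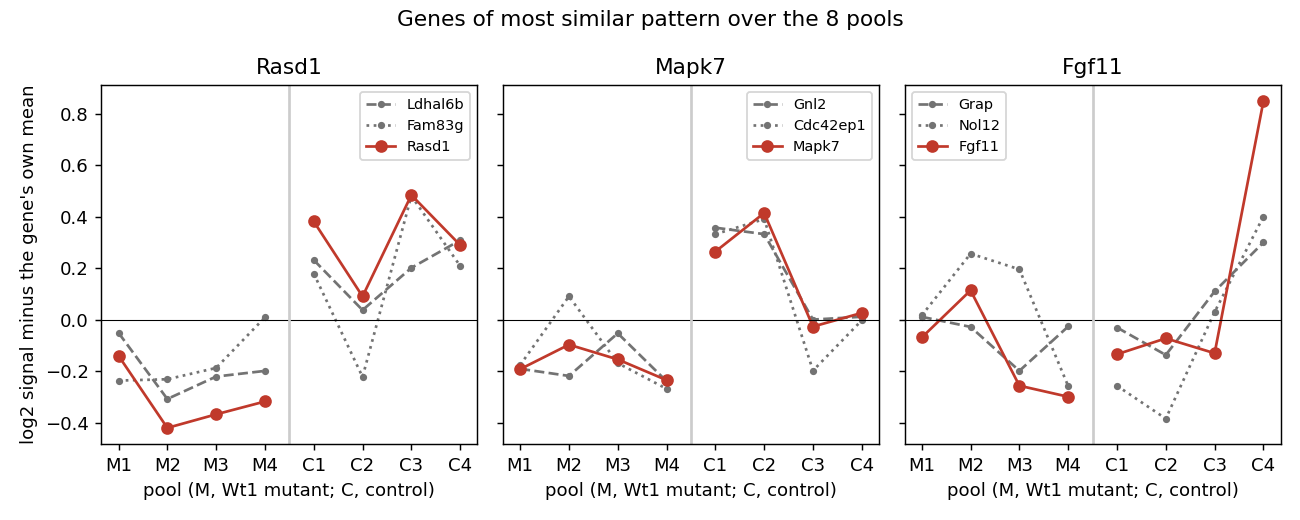
Log2 signal minus the gene's own mean of the 8 pools (vertical axis) in Wt1 mutant pools M1 to M4 and control pools C1 to C4. Red lines are Rasd1, Mapk7 and Fgf11 and grey lines the 2 matched genes closest to each. The Mapk7 group peaks in control pools 1 and 2. The Fgf11 group peaks in control pool 4, where Fgf11 rises further than its neighbours. The grey genes were picked for likeness to the member, which favours shared peaks.

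The 3 genes share a chromosome in RefSeq's annotation, chromosome 11, where 29 coding genes lie between Rasd1 and Mapk7 and 109 between Mapk7 and Fgf11. Chromosome 11 also held 51 of the 169 matched and tested genes, or 30.2%. A place on chromosome 11 is therefore common for a single gene that could be named on this array. How often 3 such genes lie on the same chromosome was not counted.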

How the data were processed

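Amplified, digoxigenin-labelled cRNA from 8 pools was hybridised to one-colour Applied Biosystems Mouse Genome Survey arrays, per the labels' protocols. Each deposited file lists, per the file headers, for each of 33012 probes its signal, its array-normalized signal, a flag and a signal-to-noise score. The deposited signal is a linear intensity with no value at or below 0. It was treated as corrected for background, although neither the headers nor the labels say so. Probes were filtered on 2 other deposited values, the flag and the signal-to-noise score. Which reader software was used, and what the flag codes stand for, is not given in the sources used here. In the deposited series table, every cell equals the array-normalized signal (264096 of 264096), which served only as an alternative.

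Intensities were converted to log2 and quantile normalized with limma 3.58.1 (R 4.3.3), using every probe. A probe entered the test where 3 or more pools of either genotype had a signal-to-noise of 3 or higher with a flag below 5000. The genotypes were compared by lmFit and eBayes of limma (two-sided), p-values were adjusted by Benjamini and Hochberg's method over all tested probes, and the threshold was 0.05. Symbols come from the RefSeq table of GRCm38.p6, by accession without version or by exact synonym, for 311 of 33012 probes and 305 genes. The rule for named genes took the 3 members, every tested gene of the lists, and the 3 matched genes of most similar pattern for each member, of which 1 is not reported here. The members, lists, tests and alternatives were chosen with earlier results of these data known. The per-pool ratios between members and the look at flag 64 were added after their values had been seen.

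Other fits used another scaling, other values, normexp background, another filter, another variance model, array weights, blocks, or fewer pools. Replicate numbers come from the titles, and deviations of same-numbered pools correlated at -0.09, 0.18, 0.004 and 0.08, so the numbers were treated as names.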

Additional observations from a re-analysis of the deposited data

Results flagged for a closer look

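Fgf11 in control pool 4 had a log2 signal of 12.57, far above the other 3 control pools, which lay between 11.59 and 11.65. Its gap to the nearest control was 0.937 of the group's whole range, more than Dixon's test allows at the 95% level. No other member value stood out in this way. In all, 6 groups of 4 pools were examined, of which chance is known to pick out about 1 in 20. This reading carried flag 64.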

How the results depend on the processing

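The 3 genes had lower means in mutants in the 23 other limma fits, of which 5 give the reported differences by construction. The exception outside these fits was Fgf11 within the smaller date, at 0.0033. Calls changed as follows. Rasd1 passed with array weights (-0.68) and without control pools 3 and 4 (-0.55), and Mapk7 passed without control pools 3 and 4 (-0.51). The unadjusted exact permutation test (p = 0.0286, as for any probe without overlap) left the differences at -0.62 for Rasd1 and -0.34 for Mapk7. The cause was not tested. Leaving out 1 pool gave -0.70 to -0.56 for Rasd1, -0.40 to -0.26 for Mapk7 and -0.34 to -0.02 for Fgf11, with no pass. The count of 81 called probes was 285 with array weights, 30 without a filter on dim probes, 30 in the larger date alone, 30 with the replicate block, 36 with mutant pools 1 and 4 averaged (their array names share a number) and 4566 without control pools 3 and 4. It was 38 to 65 with 1 pool left out. The fits with pools left out or averaged rest on fewer samples, and the unfiltered one on more probes. With the replicate block limma's adjusted p became 0.215 for Rasd1, 0.403 for Mapk7 and 0.618 for Fgf11, so no call of these genes changed. Median scaling moved the median of all probes to -0.12, where Rasd1 was at -0.68, Mapk7 at -0.44 and Fgf11 at -0.28. The signals of the 3 genes were detected on every array, and the number of arrays, 8, limits the precision. Their spread does so too. Without control pools 1 and 2 limma's SE was 0.074 for Mapk7, 0.11 for Rasd1 and 0.28 for Fgf11. With all pools it was 0.12, 0.12 and 0.23 in that order.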

Other observations

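Spread within a genotype differed by gene. The SD of Mapk7 among mutant pools was larger than that of 11.9% of tested probes, and that among control pools than that of 31.0%. For Rasd1 these shares were 44.6% among mutants and 21.1% among controls, and for Fgf11 they were 64.9% and 78.4%. The median SD over tested probes was 0.14 among mutant pools and 0.29 among control pools.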
